A study of Rattus norvegicus with 4 samples.

Results

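Metabotropic glutamate receptors are G protein-coupled receptors that answer to the glutamate released at excitatory synapses. Group I receptors, of which Grm5 encodes mGlu5, couple through Gq to phospholipase C and sit mainly around the postsynaptic density, where Homer proteins bind their tail. Group II, encoded by Grm2 and Grm3, and group III, to which Grm4, Grm7 and Grm8 belong, couple to Gi and Go, lower cyclic AMP and act largely as presynaptic brakes on transmitter release, while Grm3 is also used by astrocytes.

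The members were all probe sets whose platform annotation gives exactly 1 gene symbol and that symbol is Grm2, Grm3, Grm4, Grm5, Grm7 or Grm8. These were 9 of the 31042 probe sets on the array that are not Affymetrix controls, for 6 of the 14217 genes with a probe set of their own. The hippocampal RNA came from male Wistar rats, 16 months old at dissection. Stressed rats had gone through 4 weeks of chronic unpredictable mild stress, a changing series of mild stressors used as a model of depression, begun at an age of 15 months. Nonstressed controls of the same age were kept under standard housing. There were 2 arrays per group, each with RNA pooled from 3 rats, so a p-value rests on spread between pools and not between single rats. The labels do not say if different animals went into the 2 pools of each group. Other genes of the family were not analysed here.

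A probe set was tested when its signal, in the linear units of the array software, was 100 or more on 2 or more of the arrays, as held for 14791 probe sets. Of the 9 members, 5 were tested and 4 were dim. The tested ones covered Grm2, Grm3, Grm4, Grm5 and Grm8 with 1 probe set each, and the dim ones were the only probe set of Grm7, a further probe set of Grm5 and 2 further probe sets of Grm8. The median signal was 79.3 to 82.1 on the 4 arrays, and the log2 signals of the tested probe sets correlated with r of 0.993 and 0.994 within groups and 0.972 to 0.974 between them, across probe sets that are not independent. Of the listed markers, 9 of 11 for pyramidal cells of the CA fields and 5 of 9 for granule cells of the dentate gyrus were tested. So were 6 of 9 for thalamus, 4 of 9 for striatum and 2 of 9 for cerebellum. The rest were dim or had no probe set of their own. In the same order, 10, 7, 8, 8 and 7 of the listed markers had one. These counts do not set hippocampus apart from thalamus. The comparison was stressed against control by limma on log2 signals, which draws part of the spread of each probe set from the other tested probe sets. With 2 arrays per group the smallest two-sided p of an exact permutation test is 0.33.

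The Grm5 transcript was lower in stressed rats, and its estimated log2 fold change was the largest in size among the 5 tested members. The 95% interval of the tested Grm8 probe set, given below, reached a change of similar size in the other direction. At the tested Grm5 probe set the signal was 362.4 and 336.5 on the 2 stressed arrays and 1040.6 and 1006.3 on the 2 control arrays. Both stressed signals thus lay far under both control signals, with no overlap. The means were 349.4 ± 18.3 (SD, n = 2 arrays) and 1023 ± 24.3. The log2 fold change was -1.55 (95% interval -1.71 to -1.40, standard error 0.07, limma adjusted p = 1.63e-05), and the stressed level was 34.1% of the control level. Among the 14791 tested probe sets this log2 fold change ranked 56 from the lowest, and its unadjusted p ranked 16 from the smallest.

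**Figure D1:**
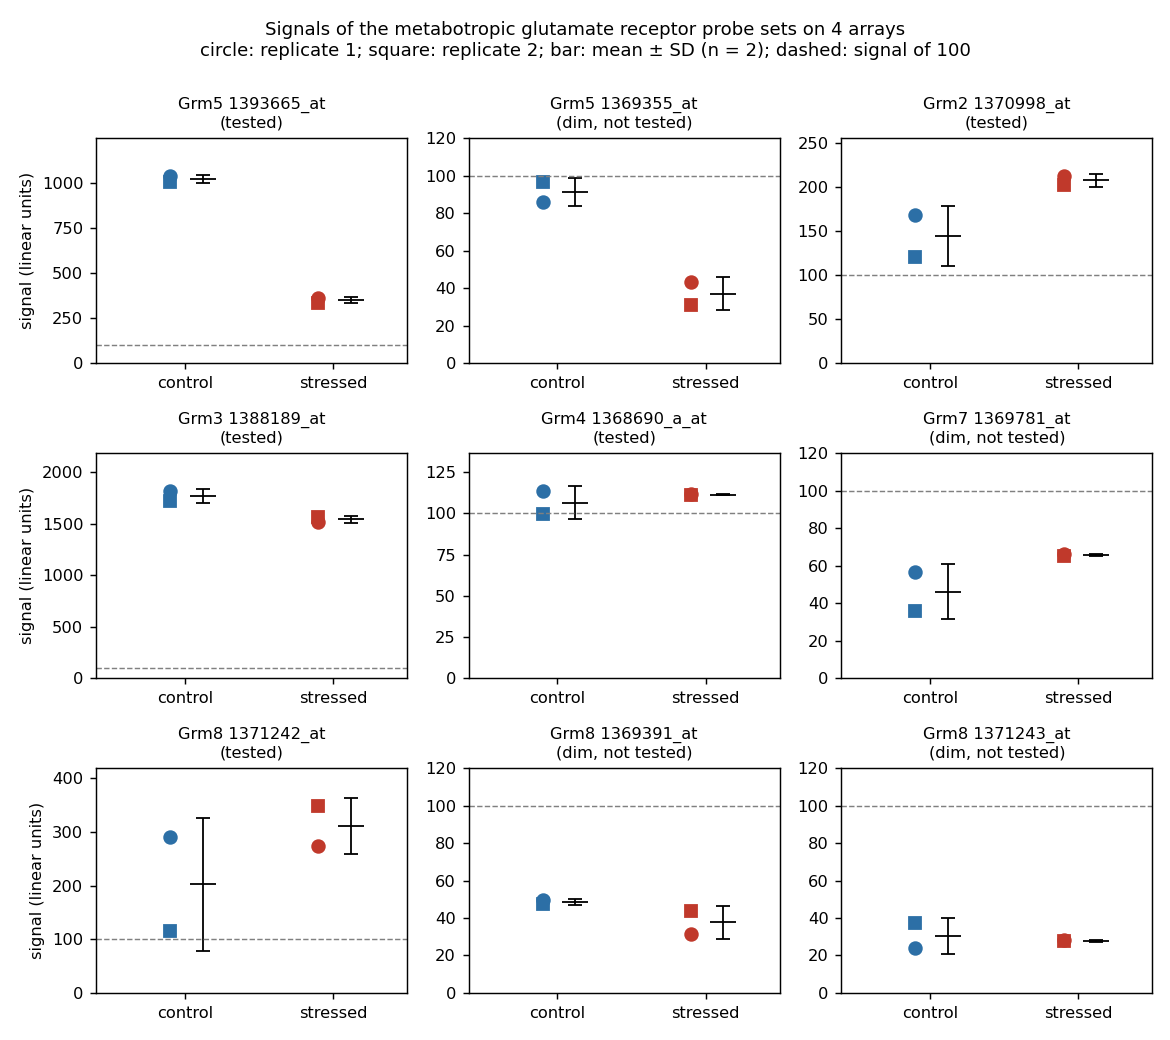
Signal in linear units (vertical axis from 0) of each of the 9 member probe sets on the 2 control and 2 stressed arrays. Circles are replicate 1, squares replicate 2, bars the mean ± SD (n = 2 arrays), and the dashed line is the signal of 100 used in the filter. Both Grm5 probe sets are lower on both stressed arrays, while the 2 control arrays of Grm8 1371242_at lie far apart, at 290.3 and 114.6.

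The other Grm5 probe set was dim but lay lower in stressed rats as well. Its signals were 43.3 and 30.9 in stressed rats and 85.9 and 96.5 in controls, all under 100. The groups did not overlap, as at 52.1% of all 31042 probe sets, and each of these signals was low enough for the filter to leave the probe set out. When all 31042 probe sets were tested without the filter, its log2 fold change was -1.32 (95% interval -1.93 to -0.70, standard error 0.26, limma adjusted p = 0.0261). In that unfiltered comparison 4.32% of all probe sets were lower at adjusted p under 0.05. This call was lost without the intensity trend in the moderation (adjusted p = 0.213) and in each removal of an array (adjusted p 0.104 and 0.152 without stressed replicates 1 and 2, and 0.167 and 0.216 without control replicates 1 and 2). The fall at the brighter probe set exceeded that at the dimmer one by 0.24 on the log2 scale, and this difference overlapped between the groups (exact two-sided permutation test, p = 0.667). The platform annotation lists a RefSeq mRNA of Grm5 for the dim probe set and an expressed sequence tag for the bright one. The part of the transcript that each probes was not analysed here.

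The 2 group II receptor genes pointed in opposite directions. Grm3 had signals of 1516.1 and 1566.5 in stressed rats and 1818.4 and 1717.3 in controls. Its groups did not overlap, but the gap between them was small. Its log2 fold change was -0.20 (95% interval -0.31 to -0.08, standard error 0.05, limma adjusted p = 0.0271), which leaves 87.2% of the control level. The Grm3 call was lost in each removal of an array, with adjusted p of 0.11 and 0.0535 without stressed replicates 1 and 2 and of 0.143 and 0.0621 without control replicates 1 and 2.

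Grm2, whose receptor acts on the terminals of dentate granule cells, had signals of 212.3 and 202.2 in stressed rats and 168.4 and 120.4 in controls. Both stressed arrays were above both controls, and the controls differed from each other more than the stressed arrays did. The log2 fold change of 0.54 (95% interval 0.15 to 0.93, standard error 0.17) missed the threshold at an adjusted p of 0.0519 from limma. It passed without control replicate 1, at a log2 fold change of 0.78 (limma, adjusted p = 0.029), and was 0.30 without control replicate 2 (limma, adjusted p = 0.216).

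None of the group III receptor genes passed the test. Grm4 had signals of 111.6 and 111.1 in stressed rats and 113.7 and 99.5 in controls, close to the filter. Its groups overlapped, and the log2 fold change was 0.07 (95% interval -0.28 to 0.41, limma adjusted p = 0.778). That interval excludes a 2-fold change in either direction but not smaller ones.

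Grm8 was measured by 3 probe sets that did not share a direction. At the tested one the signals were 274.8 and 348.9 in stressed rats and 290.3 and 114.6 in controls. One control lay between the stressed arrays and the other far below, a gap of 1.34 on the log2 scale between the controls, and 5 of the 14791 tested probe sets, this one included, had a gap between the controls at least that large. The log2 fold change was 0.76 (95% interval -0.08 to 1.61, standard error 0.36, limma adjusted p = 0.168). The difference turned on control replicate 2, since without it the log2 fold change was 0.09 (adjusted p = 0.748), and without control replicate 1 it was 1.43 (adjusted p = 0.0105).

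The further Grm8 probe sets were dim. One had signals of 31.5 and 44.0 in stressed rats against 49.6 and 47.6 in controls, and the other 28.1 and 27.5 against 23.8 and 37.3. The former did not overlap between groups and the latter did. In the fit without the filter their log2 fold changes were -0.38 (95% interval -1.10 to 0.34, limma adjusted p = 0.52) and -0.10 (95% interval -1.04 to 0.84, limma adjusted p = 0.918).

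Grm7, which encodes a receptor of low glutamate affinity at the presynaptic active zone, was dim on all arrays. Its signals were 66.1 and 65.4 in stressed rats and 56.5 and 35.7 in controls. The stressed arrays were both higher, yet the controls lay further from each other than the nearer control lay from the stressed arrays. Without the filter the log2 fold change was 0.55 (95% interval -0.14 to 1.24, standard error 0.29, limma adjusted p = 0.323).

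**Figure D2:**
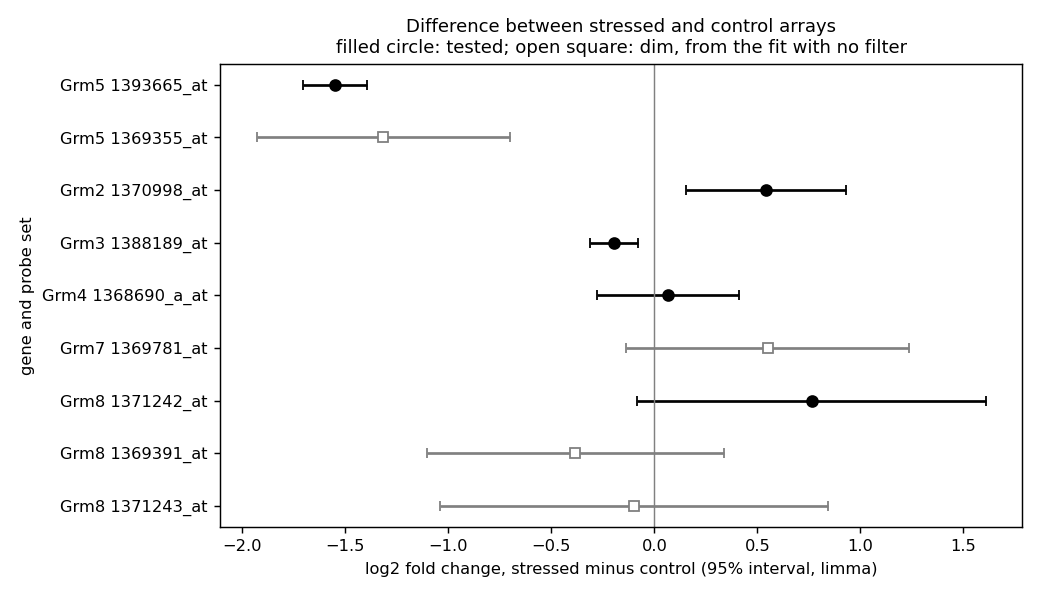
Log2 fold change of stressed minus control (horizontal axis) for each member probe set, with its 95% interval from limma. Filled circles are the 5 tested probe sets and open squares the 4 dim ones, taken from the fit with no filter. The intervals of both Grm5 probe sets lie below -0.7, that of Grm3 lies just below 0, that of Grm2 lies above 0, and those of Grm4, Grm7 and all 3 Grm8 probe sets cross 0.

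Counted together, 2 of the 5 tested members fell and none rose at adjusted p under 0.05 from limma, where 11.8% of all tested probe sets fell and 12% rose, 23.8% in all. At unadjusted p under 0.05, 2 were lower (Grm5 and Grm3) and 1 was higher (Grm2), as were 17.6% and 20.4% of all tested probe sets. By the test named in the methods, which takes the spread from the 4 arrays of each probe set alone, no member was called at adjusted p under 0.05, and 0.122% of the tested probe sets were. That test gave Grm5 an unadjusted p of 0.00143 and an adjusted p of 0.0848 on log2 signals, with limma as the main test. At the thresholds of the methods, at least 2-fold with unadjusted p under 0.05, Grm5 was the only tested member that passed. The p used with these thresholds, here and below, came from limma and not from the test named in the methods. On that basis 1.38% of the tested probe sets were lower and 0.216% higher. The groups did not overlap at 3 of the 5 tested members, as at 64.4% of all tested probe sets.

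The differences between members were tested within arrays. The log2 fold change of Grm5 was lower than that of Grm3 by 1.35 on the log2 scale, than that of Grm4 by 1.62, than that of Grm2 by 2.09 and than that of Grm8 by 2.31. In each of these 4 pairs the within-array differences did not overlap between stressed and control arrays. The exact two-sided permutation p was 0.33, the smallest that 4 arrays allow, and 0.417 after Benjamini-Hochberg adjustment over the 10 pairs of tested members. Between the group II genes the log2 fold change of Grm2 was above that of Grm3 by 0.74, again without overlap and with the same p-values. Grm3 and Grm4, whose log2 fold changes differed by only 0.26, did not overlap either, so a lack of overlap does not set Grm5 apart. Among single tested probe sets 64.4% did not overlap, and the share over other pairs of probe sets was not computed.

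**Figure D3:**
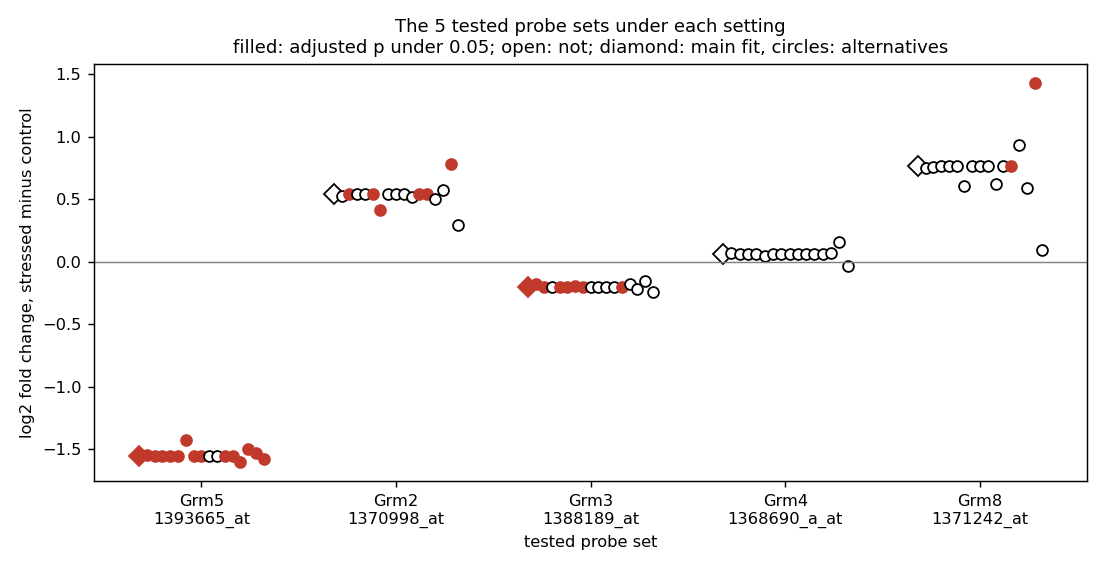
Log2 fold change of stressed minus control (vertical axis) of the 5 tested probe sets in the main comparison (diamonds) and under each alternative setting (circles, in the same order for each probe set). Filled symbols passed adjusted p under 0.05. Grm5 stayed between -1.60 and -1.43, while Grm8 ranged from 0.09 to 1.43.

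The tested probe sets whose signals followed Grm5 most closely, among 11626 others with a single gene, were those of Galnt2, Stox2 and Pals1. Likeness was the Euclidean distance between log2 signals over the 4 arrays, each probe set centred on its own mean, and these distances were 0.03, 0.07 and 0.07. Galnt2, a glycosyltransferase of the Golgi, had signals of 288.1 and 275.1 in stressed rats and 850.4 and 821.0 in controls. For Grm3 the closest were Nsd3, Rbfox3 and Ndufa7, at distances of 0.01, with log2 fold changes of -0.20 each. Of these Rbfox3 passed (limma, adjusted p = 0.022), while Nsd3 and Ndufa7 did not (limma, adjusted p = 0.0903 and 0.178). The other tested probe set of Rbfox3 was at 0.07 (limma, adjusted p = 0.448). With only 4 arrays, likeness says little more than a similar fold change, and the closest probe sets were chosen for it.

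The genes through which metabotropic receptors signal moved in both directions. The 4 lists of signalling and partner genes held 69 tested genes, each taken at its brightest tested probe set. Of these 13 rose and 12 fell at adjusted p under 0.05 from limma, which are 18.8% and 17.4% of them. Of all tested probe sets, not only the brightest of each gene, 12% rose and 11.8% fell. The same shares stand beside the counts of each list below, and no difference from them was tested. The median log2 fold change of the 69 genes was 0.02, and that of all tested probe sets was 0.02. The rises numbered 6 and 8 without stressed replicates 1 and 2 and 4 without either control replicate, and the falls 6 with stressed replicate 2 or control replicate 1 left out and 5 with control replicate 2 left out. The Gq arm, which links mGlu5 to phospholipase C, calcium release and protein kinase C, had 13 tested genes, of which 3 rose and 2 fell (median 0.02). Gna11, a Gq-class alpha subunit, had signals of 154.5 and 147.5 in stressed rats and 348.1 and 333.3 in controls. Both stressed signals were far below both controls, and the log2 fold change was -1.17 (limma, adjusted p = 2.70e-04). Prkce, a protein kinase C, fell by 0.35, whereas Prkcb, another, rose at all 3 of its tested probe sets, by 0.29 at the brightest and by 0.39 and 0.56 at the others. Ptk2b, a calcium-sensitive tyrosine kinase, rose by 0.28. In this arm 1 gene rose when stressed replicate 1 or either control replicate was left out, and 1 fell without control replicate 2.

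The Gi and Go arm serves the group II and group III receptors. Of its 18 tested genes 1 rose and 4 fell (median 0.01). Gnai2, a Gi alpha subunit, had signals of 1443.9 and 1686.3 in stressed rats and 2356.3 and 2372.3 in controls, a log2 fold change of -0.60 (limma, adjusted p = 0.00131). The beta subunit gene Gnb5 fell by 0.30 on the log2 scale and the gamma subunit gene Gng2 by 0.29, although the other tested probe set of Gng2 was at 0.02 (limma, adjusted p = 0.871). Kcnj6, which encodes a potassium channel subunit opened by G protein beta-gamma subunits, rose from 898.1 and 943.1 in controls to 1361.0 and 1368.8 in stressed rats, a log2 fold change of 0.57 (limma, adjusted p = 3.49e-04). The falls numbered 2 without stressed replicate 2, control replicate 1 or control replicate 2.

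Among 26 tested genes for proteins that bind or desensitise the receptors, 7 rose and 4 fell (median -0.02). Homer2, a scaffold that binds the mGlu5 tail, had signals of 71.0 and 76.5 in stressed rats and 200.4 and 224.2 in controls. Its log2 fold change, from the single tested probe set, was -1.52 (standard error 0.14, limma adjusted p = 3.66e-04). Both stressed signals were under 100, so this probe set passed the filter only through the control arrays, where it was high. Whether its fall was related to that of Grm5 was not tested. The brightest of 3 tested Homer1 probe sets was at -0.17 (limma, adjusted p = 0.0553), while the other two fell, with log2 fold changes of -0.39 and -0.998 (limma, adjusted p = 0.0169 and 0.00153). Homer3, at -0.13, did not pass (limma, adjusted p = 0.157). Homer1 and Homer3 were named after their values were seen. Rgs4, which shortens Gq and Gi signals, fell at both tested probe sets, by 0.33 and 0.52. Pias1, a SUMO ligase, rose by 0.52 and Cav1, which encodes the main caveolar coat protein, by 0.31, each at the brighter of 2 tested probe sets. The dimmer ones, at 0.31 for Pias1 and 0.13 for Cav1, did not pass (limma, adjusted p = 0.11 and 0.469). The rises in this list numbered 3 and 4 without stressed replicates 1 and 2, and 1 and 2 without control replicates 1 and 2. The falls numbered 2 without stressed replicate 2 or either control replicate.

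**Figure D4:**
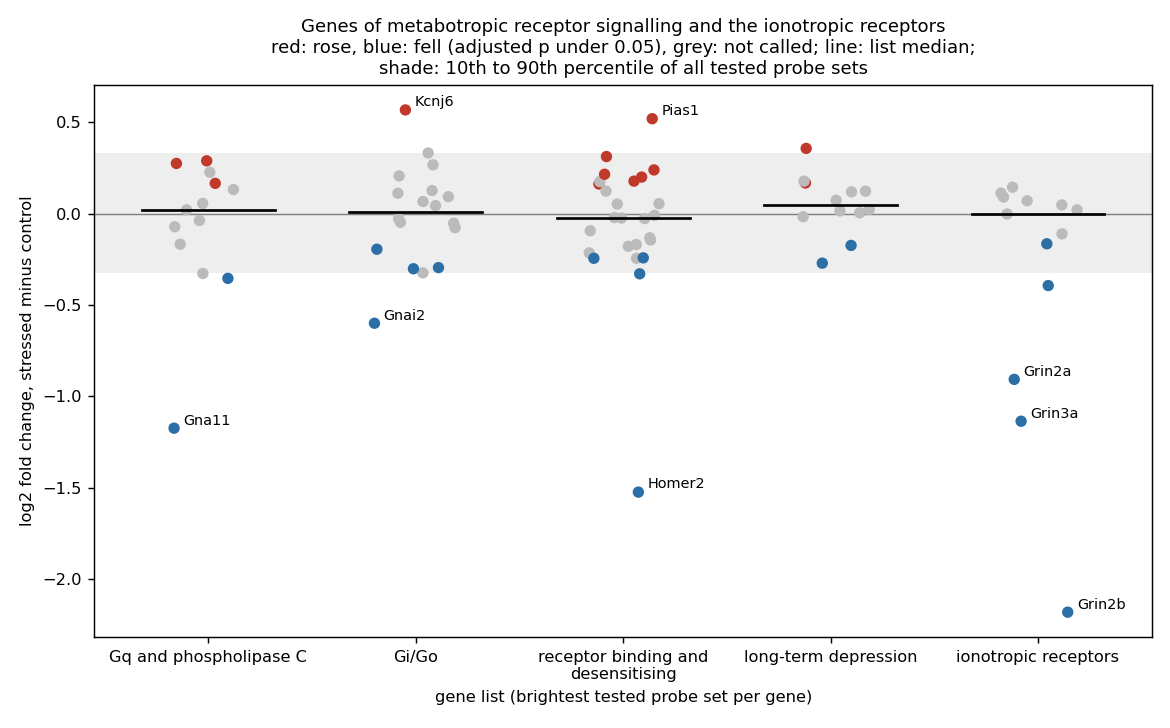
Log2 fold change of stressed minus control (vertical axis) for the tested genes of 4 metabotropic receptor signalling lists and of the ionotropic glutamate receptors, 1 point per gene at its brightest tested probe set. Red points rose and blue points fell at adjusted p under 0.05 from limma, grey points did not pass, black lines are list medians, and the shade spans -0.32 to 0.32, the 10th to 90th percentile of all tested probe sets. The medians lie near 0, with Homer2, Gna11 and Grin2b far below.

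Activation of group I receptors can depress synapses for long periods through local protein synthesis. Of 12 tested genes of this process 2 rose and 2 fell (median 0.05). Arc, which drives the removal of AMPA receptors, fell by 0.27 on the log2 scale (limma, adjusted p = 0.0209), and the cap-binding factor gene Eif4e fell by 0.17 (limma, adjusted p = 0.0478). The growth kinase gene Mtor rose by 0.36 (limma, adjusted p = 0.00924). Cyfip2 rose by 0.17 at the brighter of its probe sets and fell by 0.78 at the dimmer (limma, adjusted p = 0.0313 and 2.70e-04). No gene of this list fell without stressed replicate 2, control replicate 1 or control replicate 2, and 1 fell without stressed replicate 1. Rises numbered 1 in 3 of the removals, and none rose without control replicate 2.

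For comparison, of 13 tested ionotropic glutamate receptor genes 5 fell and none rose at adjusted p under 0.05 from limma (median 0.00). Grin3a, 1 of those that fell, had signals of 57.0 and 70.8 in stressed rats and 136.2 and 143.1 in controls. It passed the filter only through the control arrays, where it was high. At unadjusted p under 0.05, 1 of them was higher and 5 were lower. By the test the methods name, none was called at adjusted p. Whether Grm5 differed from these genes was not tested.

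Receptor transcripts in whole hippocampus also depend on which cells the dissection held, and in pooled tissue fewer cells of a type and less RNA per cell cannot be told apart. Of 11 tested astrocyte markers 3 rose and 1 fell, and their summed signal was 53272 and 54853 in stressed rats against 47380 and 48653 in controls. Slc1a3, a glutamate transporter of astrocytes, rose by 0.37 at its brightest probe set, and Slc4a4 by 0.37 at its brightest. A dimmer tested probe set of each fell, at -0.43 for Slc1a3 and -0.57 for Slc4a4 (limma, adjusted p = 0.0125 and 0.00268). The remaining tested probe set of Slc1a3, at 0.23, did not pass (limma, adjusted p = 0.0562). Of 9 general neuronal markers 3 rose and 1 fell, with sums of 36464 and 36650 against 32928 and 33613. In the removals of an array 1 (without control replicate 1) or 2 of these rose and none fell, and 2 or 3 astrocyte markers rose. Of 9 tested markers of the CA pyramidal cells 1 rose and 3 fell, with sums of 14704 and 14717 against 13978 and 13984. The higher stressed sums rest on Nptx1, the marker that rose, which was named after its values were seen. Its signals were 7525.6 and 7504.2 in stressed rats and 5721.4 and 5981.3 in controls. Of 6 tested choroid plexus markers 4 rose and none fell, F5 by 1.17 and Cldn2 by 1.20, with sums of 13141 and 14295 against 10122 and 12012. Cldn2, at 78.8 and 96.5 in controls, passed the filter only through the stressed arrays, where it was high. The same held for Aqp1, another that rose, at 69.1 and 73.5 in controls. Aqp1 was named after its values were seen. The choroid plexus markers Kl and Kcnj13 were too dim to be tested. The summed signal of the interneuron markers was lower on both stressed arrays, though not every marker was. Of the 9 tested, 4 fell and none rose, Gad2, a GABA-synthesising enzyme, by 1.41 on the log2 scale and the neuropeptide gene Npy by 0.38, with sums of 11168 and 11597 against 12556 and 12877. Gad1, which encodes the other such enzyme and was named after its value was seen, had a log2 fold change of 0.01 (limma, adjusted p = 0.866). In the removals of an array 3 to 5 of these markers fell. Of 7 tested microglia markers 2 fell and 1 rose, with sums of 3570 and 3588 against 3827 and 3848, and none fell without stressed replicate 2 or either control replicate. Over all 13 marker lists, the summed signal was higher on both stressed arrays in 6 and lower on both in 5, which were those of interneurons, microglia, oligodendrocytes, striatum and cerebellum, and it overlapped in 2. Each sum adds linear signals, so the brightest markers weigh most in it. No tested marker of the 13 lists was at 0 on all arrays, and the part of these markers in the receptor values was not tested.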

How the data were processed

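Signals were measured on 4 Affymetrix rat genome arrays. The authors processed the scans with GCOS 1.4 to a target value of 300, and the deposited intensities are linear, with a trimmed mean of 300.1 on each array; no further scaling was added. Zeros were set to 0.1 and log2 signals computed from the deposited intensities. The 57 control probe sets were left out. Gene names came from the platform annotation, which gives 1 gene for 20826 probe sets, several for 436 and none for 9780, updated through RefSeq identifiers (20758 matched). The 14791 probe sets that reached 100 on 2 or more arrays were compared between groups with limma (version 3.58.1, R version 4.3.3), using an intensity trend and Benjamini-Hochberg adjustment over all of them. Detection calls were not used here. Lists took the brightest tested probe set of a gene. Permutation tests used scipy 1.17.1 and plots matplotlib 3.10.9. The fit was tested on simulated data with known changes. The members and lists were chosen with earlier results of these data known. Named genes were all members, the up to 4 called genes of smallest p per signalling list and 2 per marker list, and the 3 probe sets closest to each called member; others are marked. The number of arrays limits the precision. Alternatives were scaling, filter, low-signal handling, moderation, test, replicate block, removed arrays and threshold.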

Additional observations from a re-analysis of the deposited data

How the results depend on the processing

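The fall of Grm5 was called in 14 of 16 alternatives, with log2 fold changes from -1.60 to -1.43, and it missed adjusted p under 0.05 by the test the methods name, at -1.55 on log2 signals (adjusted p = 0.0848) and -1.55 on linear signals (adjusted p = 0.0774). Grm3 lost its call at -0.20 with no filter on dim probe sets (adjusted p = 0.0633), with no intensity trend (0.114), by the methods' test on log2 and linear signals (0.209 and 0.214) and with the replicate block (0.0673), and in the removals of an array it ranged from -0.24 to -0.16. Grm2 passed at 0.54 after median centring (adjusted p = 0.0493), with a minimum signal of 200 (0.0456) and with the replicate block (0.0457), and at 0.41 with an offset of 50 (0.0479), ranging from 0.30 to 0.78 in the removals. The Grm8 log2 fold change was between 0.093 and 1.43 in the removals, and that of Grm4 was -0.030 without control replicate 2, its only negative value, and up to 0.16 otherwise. The dim Grm8 probe set 1371243_at turned to 0.22 without control replicate 2. Members that fell numbered 1 with no intensity trend, with the replicate block, at the study's thresholds and in each removal, and 0 by the methods' test on either scale. Members that rose numbered 1 after median centring, with a minimum of 200, with an offset of 50 and with the replicate block, and 0 to 2 in the removals. In the 4 signalling lists, 6 genes fell and 5 rose with no intensity trend, 2 and 0 at the study's thresholds, 0 and 0 by the methods' test, and 5 to 12 and 4 to 8 in the removals, while 8 rose with no filter and 8 with the replicate block. The deviations of same-numbered arrays from their group means correlated at r = -0.11, so a crossed pairing was added after seeing the data: as a replicate block it gave 2 member probe sets that rose, at 0.54 (Grm2) and 0.76 (Grm8), and 2 that fell. A removal leaves 1 array in a group, which is assumed to vary like the others, and fewer arrays lower the power; the causes of the other changes were not tested.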

Other observations

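Where a gene had several tested probe sets, these often differed. Of the 15 genes in the 4 signalling lists with at least 2 tested probe sets, the brightest had a higher log2 fold change than the dimmest in 11, against 1044 of 1871 genes (55.8%) on the whole array. Over the whole array the brightest probe set rose and the dimmest fell, both at adjusted p under 0.05 from limma, in 56 genes, and the reverse held in 11. Cyfip2 was the one such gene in the signalling lists. Both Grm5 probe sets were lower in stressed rats, with 1 of them dim. No test was made of these counts.

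Control replicate 2 was below control replicate 1 at all 5 tested members and at 7 of all 9, where 49.3% of the tested probe sets showed that order. The gap between the controls was 0.48 on the log2 scale for Grm2 and 1.34 for Grm8 1371242_at, against a median of 0.09 over the tested probe sets. It was smaller at the other tested members, at 0.05 for Grm5, 0.08 for Grm3 and 0.19 for Grm4. Among the dim probe sets, which that median does not cover, it was 0.66 for Grm7 and 0.06 for Grm8 1369391_at. In the reverse order it was 0.17 for the dim Grm5 probe set and 0.65 for Grm8 1371243_at.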
